A study of Mus musculus with 2 samples.

Results

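The translation elongation factors described here are 6 mouse genes, chosen by Ensembl identifier from a table of 12530 genes: Eef1a1 (ENSMUSG00000037742), Eef1a2 (ENSMUSG00000016349), Eef2 (ENSMUSG00000034994), Eef1b2 (ENSMUSG00000025967), Eef1d (ENSMUSG00000055762) and Eef1g (ENSMUSG00000071644). Their counts of ribosome-protected fragments were compared between spinal cord of animals heterozygous for the missense allele C201R of Gars (GarsC201R/+), the gene of glycyl-tRNA synthetase, and spinal cord of wild-type animals. Each genotype has 1 library, made from the combined lysates of 3 animals, so the spread between animals cannot be seen and differences between the genotypes carry no p-value. The symbols are those given with the identifiers when the genes were chosen. The sources used here give no age, sex or strain. The sequenced tissue is whole cord, with neurons, glia and vessels together.

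Elongation factors carry the ribosome through a coding sequence one codon at a time. In its GTP-bound form eEF1A brings each aminoacyl-tRNA, the product of synthetases such as glycyl-tRNA synthetase, to the ribosome; the eEF1B complex then exchanges the GDP left on eEF1A for GTP, and eEF2 moves tRNAs and mRNA forward by one codon. Mice have a pair of eEF1A genes: Eef1a1 is active in most tissues, and Eef1a2 takes over in mature neurons and skeletal muscle, where its loss in the wasted mouse leads to degeneration of motor neurons. eEF1B has the exchange subunits encoded by Eef1b2 and Eef1d and a structural subunit encoded by Eef1g.

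The GarsC201R/+ library held 3491159 reads in genes, against 7770935 in the wild-type library, a 2.23-fold difference in depth. All 6 genes had reads in both libraries and passed the minimum of 100 reads in the libraries together. Levels of a gene are levels of ribosome-protected fragments, given as reads and as RPKM. RPKM is reads that the authors divided by gene length and by library total. Different genes are set side by side by RPKM. Whether the lengths used match the coding sequence, where ribosome-protected fragments arise, was not tested. Orders and ratios of genes within a library therefore hold for those lengths only, while shifts between the genotypes do not depend on length. Intervals are at 95% and describe counting error alone, as if each read were a separate molecule. The ERCC spike-ins took 0.650% of the listed reads in the GarsC201R/+ library and 0.00669% in the wild-type library, and ratios below are relative to the mouse gene reads alone. Neurons, glia and other cells of the tissue could not be checked by their markers, because no table used here pairs the other identifiers with symbols.

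Eef1a2 had the highest deposited count and RPKM of the 6 elongation factor genes in both libraries. It had 8812 reads in the GarsC201R/+ library and 24607 reads in the wild-type library. Per length it stood at 1201 RPKM (1176 to 1226) in the GarsC201R/+ library, rank 19 of all genes, and at 1516 RPKM (1497 to 1535) in the wild-type library, rank 11. It supplied 63.3% (Wilson interval 62.5% to 64.1%) of the reads of the 6 genes in the GarsC201R/+ library and 68.8% (68.3% to 69.3%) in the wild-type library.

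Eef1a1, the paralog used by most other tissues, was listed far below it. Eef1a1 had 181 reads and 28.7 RPKM (24.6 to 33.2) in the GarsC201R/+ library, against 321 reads and 23.0 RPKM (20.5 to 25.6) in the wild-type library. By RPKM it ranked 2461 in the GarsC201R/+ library and 2949 in the wild-type library. The level of Eef1a2 was therefore 41.9 times that of Eef1a1 (36.2 to 48.8) in the GarsC201R/+ library and 66.0 times (59.1 to 73.9) in the wild-type library. The sources used here do not say how reads matching several places were counted, and the RefSeq table lists 2 pseudogenes named after Eef1a1, 1 named after Eef2 and 0 named after the other members. Copies listed under other names were not counted. Whether reads shared with copies lowered the value of Eef1a1 or of another member was not tested. The size of the gap between the paralogs is therefore that of the deposited counts.

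eEF2, the translocase and the target of the regulatory kinase eEF2K, was second in level. Eef2 had 4254 reads and 391 RPKM (380 to 403) in the GarsC201R/+ library, against 9063 reads and 377 RPKM (369 to 384) in the wild-type library. Its rank by RPKM was 109 in the GarsC201R/+ library and 120 in the wild-type library. Eef1a2 exceeded it 3.07-fold (2.96 to 3.19) in the GarsC201R/+ library and 4.02-fold (3.93 to 4.12) in the wild-type library.

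By RPKM the subunits of eEF1B lay lower. The highest of them was Eef1d in the GarsC201R/+ library, where Eef2 over Eef1d was 10.5 (9.49 to 11.8). In the wild-type library it was Eef1b2, and Eef2 over Eef1b2 was 7.35 (6.83 to 7.92). These 2 values have different denominators. Eef2 over Eef1d was 9.89 (9.22 to 10.6) in the wild-type library, a shift between the genotypes of 1.07 times (0.938 to 1.21) that held no shift. Eef1b2, the alpha subunit, had 234 reads and 34.3 RPKM (30.0 to 39.0) in the GarsC201R/+ library, against 774 reads and 51.2 RPKM (47.7 to 55.0) in the wild-type library. Eef1d, the delta subunit, had 371 reads and 37.1 RPKM (33.4 to 41.1) in the GarsC201R/+ library, against 843 reads and 38.1 RPKM (35.5 to 40.7) in the wild-type library. Eef1g, the gamma subunit that holds the complex together, was the lowest of the 6, with 69 reads and 10.5 RPKM (8.18 to 13.3) in the GarsC201R/+ library, against 150 reads and 10.3 RPKM (8.74 to 12.1) in the wild-type library.

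The order by RPKM was the same at the top and the bottom of the set and differed in the middle. In both libraries Eef1a2 came first, Eef2 next and Eef1g last. In the GarsC201R/+ library Eef1d, Eef1b2 and Eef1a1 followed Eef2, and neighbours among these 3 were not separated by counting error: Eef1d over Eef1b2 was 1.08 (0.916 to 1.28) and Eef1b2 over Eef1a1 was 1.196 (0.981 to 1.46). In the wild-type library the order was Eef1b2, Eef1d, Eef1a1, and each step was outside counting error, with Eef1b2 over Eef1d at 1.35 (1.22 to 1.49) and Eef1d over Eef1a1 at 1.66 (1.46 to 1.89).

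**Figure D1:**
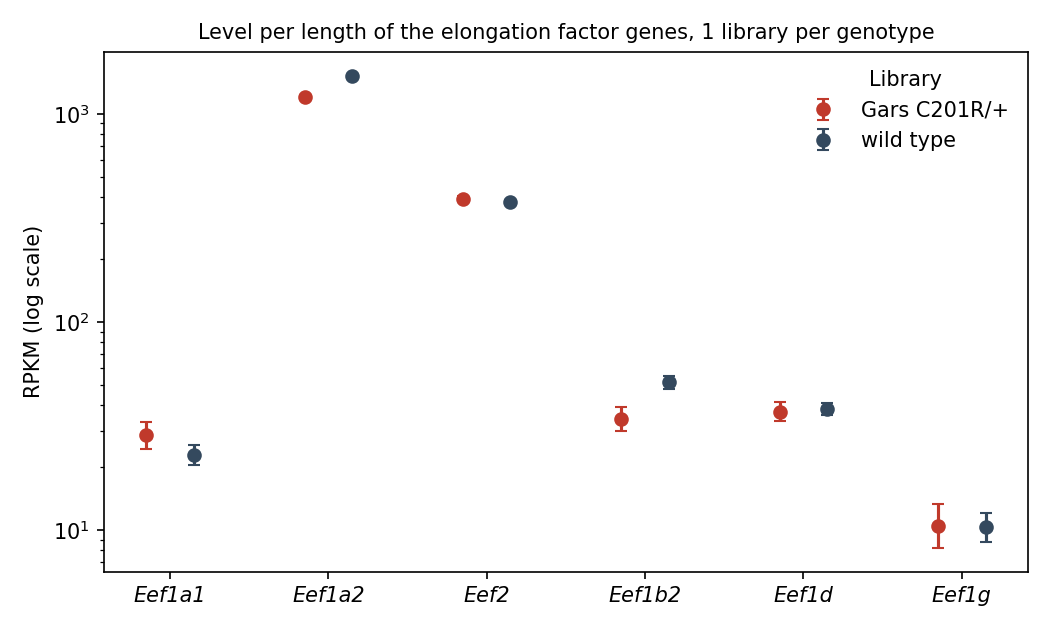
Level per length of each elongation factor gene, in RPKM on a log axis, in the GarsC201R/+ library (left point of each pair) and the wild-type library (right point), with 95% Poisson intervals for counting error and 1 library per genotype. In the GarsC201R/+ library Eef1a2 stands at 1201 and Eef1a1 at 28.7 RPKM, against 1516 and 23.0 RPKM in the wild-type library, and the 2 points of Eef1b2 are separated while those of Eef1d and Eef1g overlap.

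The letters before the annotated starts are shown as a description of the members that have an entry. RefSeq promoter sequence (GRCm38.p6) was available for 4 of the 6 genes, and the last 100 bases before each annotated start are printed 5′ to 3′ on the gene's own strand, with each CG step in capitals. They lie at chr2:181157016-181157115, minus strand, for Eef1a2, at chr9:78481725-78481824, minus strand, for Eef1a1, at chr10:81176531-81176630, plus strand, for Eef2 and at chr1:63176731-63176830, plus strand, for Eef1b2.
Eef1a2: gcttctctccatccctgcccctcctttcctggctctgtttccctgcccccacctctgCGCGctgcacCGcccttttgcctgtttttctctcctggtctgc
Eef1a1: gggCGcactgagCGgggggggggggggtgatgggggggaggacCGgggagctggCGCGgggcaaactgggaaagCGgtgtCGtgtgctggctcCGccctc
Eef2: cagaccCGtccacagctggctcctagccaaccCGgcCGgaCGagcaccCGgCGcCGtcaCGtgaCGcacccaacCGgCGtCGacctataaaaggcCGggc
Eef1b2: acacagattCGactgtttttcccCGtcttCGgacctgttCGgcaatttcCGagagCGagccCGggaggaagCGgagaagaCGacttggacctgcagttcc

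Over the 250 bases before the start, Eef1a2 held 4 CG steps, against 18 in Eef1a1, 23 in Eef2 and 19 in Eef1b2. The median of all 32851 promoters in the table was 6, and 92.1% held at least 1. At most 4 were found in 44.4% of them, and 18 or more in 21.7%. CG reads the same on both strands, so both are counted at once, and it is the only motif marked. The motif TATAAA, searched on both strands of the same window, was found in Eef2 alone of these 4 genes, beginning at position -15 on the gene's strand, and in 12.4% of all promoters. These matches describe letters before an annotated start and were not tied to the levels.

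The series was designed around ribosome occupancy of glycine codons, and the totals per gene used here allow the level of each gene to be compared between the genotypes. The log2 ratio of GarsC201R/+ over wild type was computed after scaling with TMM, which aligns the bulk of all genes, and a gene was called when it had 100 or more reads in the libraries together, a counting interval that excluded equal levels and a ratio of at least 1.5-fold. By this rule 0 of the 6 genes were called higher and 1, Eef1b2, was called lower, which is 16.7% of the members. Among all 9726 tested genes 8.14% were called higher and 11.2% lower, 19.3% in all, so the members' share is near that of any genes. The median log2 ratio was -0.05 over the 6 genes and -0.03 over all tested genes.

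Eef1b2 was lower in the GarsC201R/+ library, with a log2 ratio of -0.62 (-0.84 to -0.41), or 0.649 times the wild-type level (0.558 to 0.751). Among the 973 tested genes of similar depth, with 819 to 1213 reads in the libraries together, the middle 90% of log2 ratios ran from -0.69 to 0.55, and Eef1b2 was inside that range, above 6.47% of these genes. Its ratio was close to the 1.5-fold limit, and scaling to total gene reads, to the upper quartile or by the deposited RPKM values gave -0.57 to -0.58, which ended the call.

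Eef1a2 was lower by less than the limit, with a log2 ratio of -0.38 (-0.42 to -0.35), or 0.768 times the wild-type level (0.749 to 0.787). Its counting interval was the narrowest of the 6, since it has the most reads. Among the 973 tested genes with the most reads, from 2152 upwards, 7.71% of genes were called and the middle 90% of log2 ratios ran from -0.66 to 0.45. Eef1a2 was within that range and above 17.8% of these genes.

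Eef1a1 was on the other side of equal levels from its paralog, by less than the limit. Its log2 ratio was 0.27 (0.0032 to 0.54), or 1.21 times the wild-type level (1.002 to 1.46). In 1 random draw of the wild-type reads thinned to the smaller total, the log2 ratio was 0.19 (-0.13 to 0.51). That interval held equal levels, but fewer reads widen an interval and the full one began just above equal levels. Genes of its depth, with 447 to 602 reads, had a middle 90% from -0.73 to 0.59.

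The remaining 3 genes had intervals that held equal levels. Eef2 had a log2 ratio of 0.0095 (-0.043 to 0.062), or 1.01 times the wild-type level (0.970 to 1.04). Scaled to total gene reads, its log2 ratio was 0.063 (0.010 to 0.12), an interval just above equal levels. Eef1d had a log2 ratio of -0.08 (-0.26 to 0.09). Eef1g had a log2 ratio of -0.02 (-0.45 to 0.40), an interval wide enough to hold changes to 0.731 or 1.32 times the wild-type level. In all, the intervals of 3 of the 6 genes excluded equal levels at any fold, against 51.9% of all tested genes. The 1 gene above is set against 23.7% of tested genes, and the 2 below against 28.2%.

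**Figure D2:**
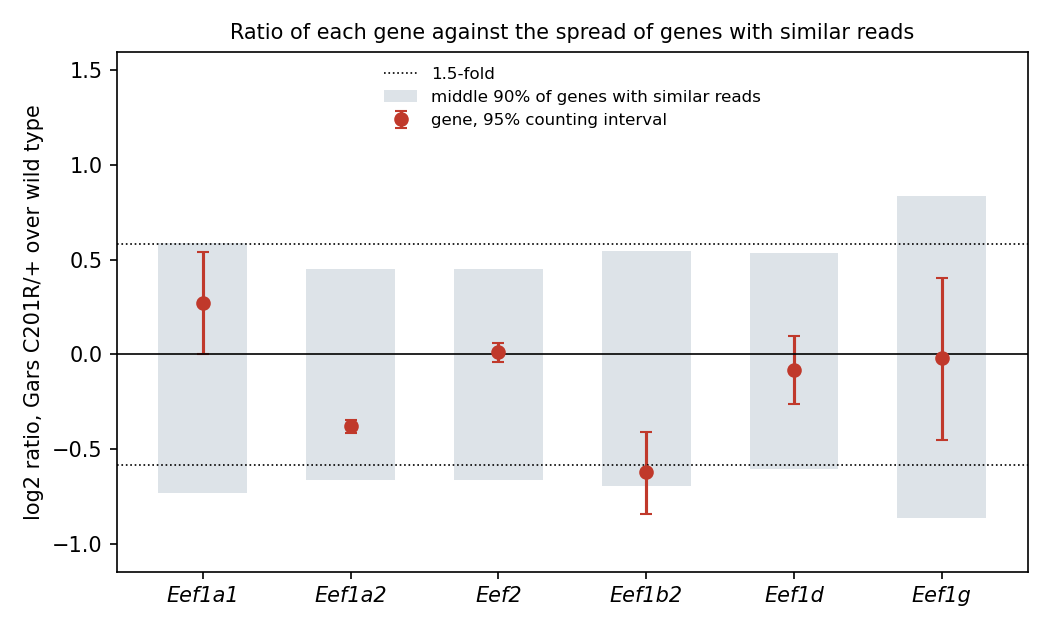
log2 ratio of GarsC201R/+ over wild type for each elongation factor gene (points, with 95% counting intervals), over grey bars for the middle 90% of tested genes in the same group by reads, with dotted lines at 1.5-fold. All 6 points lie inside their grey bar, and Eef1b2 at -0.62 is the only one past a dotted line.

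**Figure D3:**
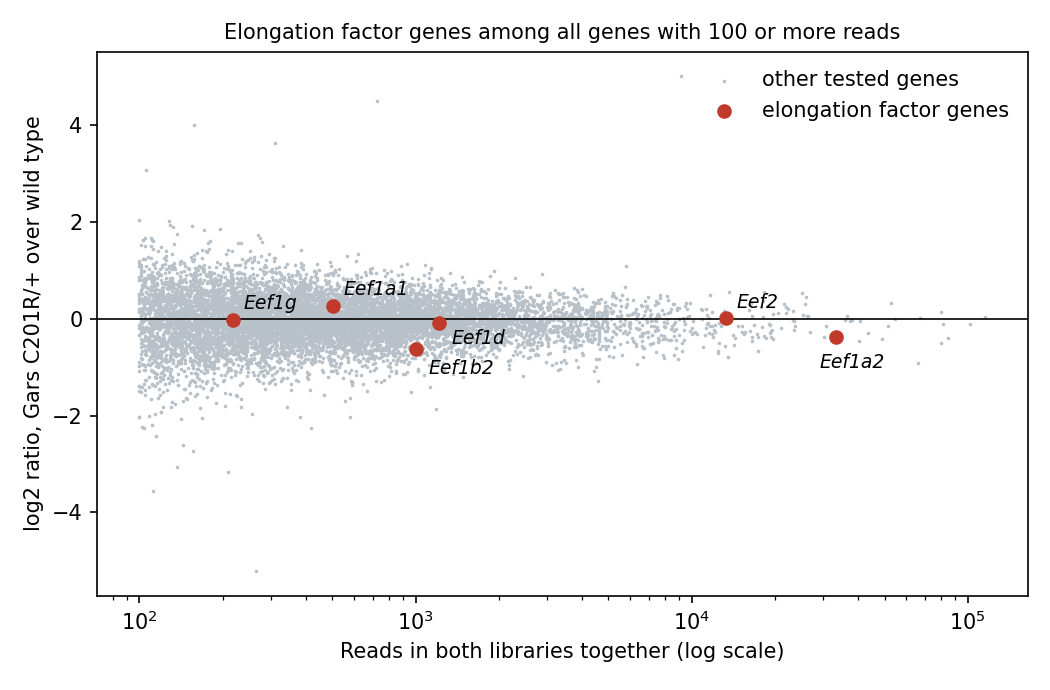
log2 ratio of GarsC201R/+ over wild type (vertical) against reads in the libraries together on a log axis (horizontal) for genes with 100 or more reads, with the 6 elongation factor genes in red. Eef1a2 and Eef2 are among the most covered genes, and each of the 6 lies within the cloud of other genes at its depth.

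A ratio between genes of the same library needs no scaling between libraries, so pairs of members show how the composition of the set differed. In the GarsC201R/+ library the eEF1A paralogs were closer to each other: Eef1a1 over Eef1a2 was 1.57 times its wild-type value (1.30 to 1.90), the counterpart of the 41.9-fold and 66.0-fold gaps above. In 1 random draw of the wild-type reads thinned to the smaller total, this was 1.48 times (1.18 to 1.85), under the 1.5-fold mark used below. Eef2 over Eef1a2 was 1.31 times its wild-type value (1.25 to 1.37), which has the narrowest interval of the 15 pairs. Each other member over Eef1b2 was above its wild-type value, from 1.18 times for Eef1a2 (1.02 to 1.38) to 1.87 times for Eef1a1 (1.47 to 2.37).

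The genes of the eEF1B subunits shifted unequally in these counts, and amounts of the subunits as protein were not measured. By RPKM, Eef1d (delta) over Eef1b2 (alpha) was 1.08 in the GarsC201R/+ library and 0.743 in the wild-type library, a shift of 1.46 times (1.198 to 1.77). Eef1g (gamma) over Eef1b2 was 0.307 in the GarsC201R/+ library and 0.202 in the wild-type library, a shift of 1.52 times (1.09 to 2.12). Eef1g over Eef1d was 0.284 in the GarsC201R/+ library and 0.271 in the wild-type library. Its shift was 1.05 times (0.754 to 1.44), an interval that held no shift. Of the 15 pairs, 9 had an interval that excluded an equal ratio in both libraries, and 4 were at least 1.5-fold, 3 of them against Eef1b2. Among all 47292675 pairs of tested genes, with intervals from a normal approximation that gave the same counts for the members, 50.2% excluded an equal ratio and 35.5% were also at least 1.5-fold. The members' pairs, at 60.0% and 26.7%, are near these shares. The pairs share genes and are not independent of each other, their intervals were not widened for their number, and they cover counting error only.

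**Figure D4:**
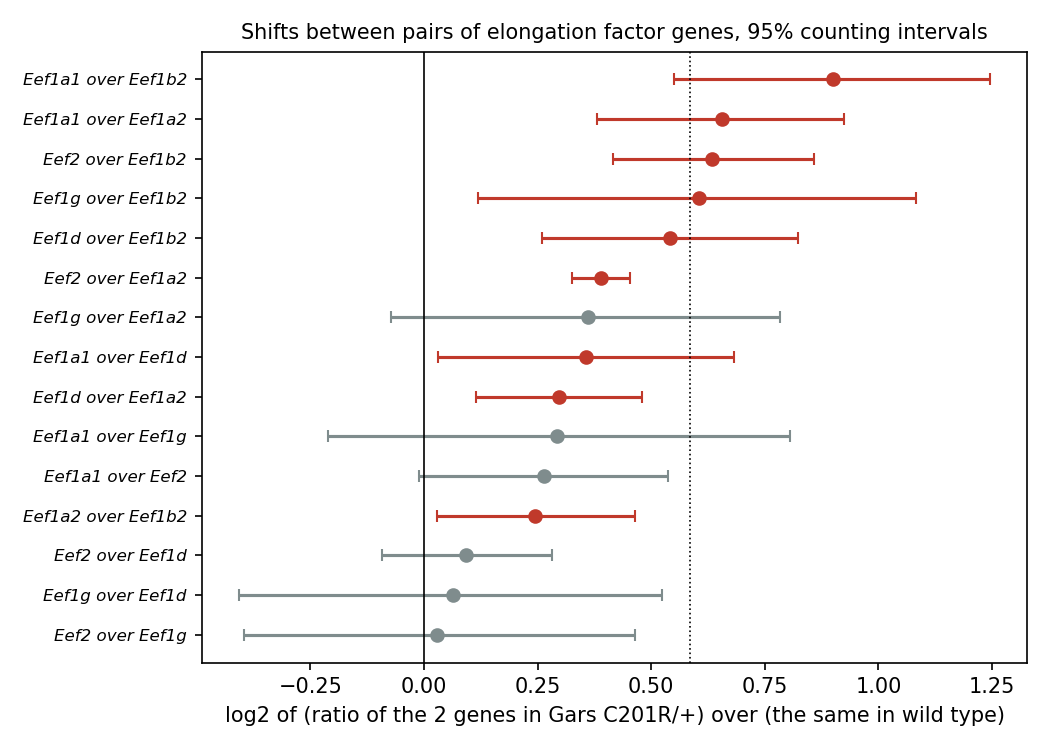
Shift of the ratio between 2 elongation factor genes, as the log2 of the ratio in GarsC201R/+ over the ratio in wild type, for all 15 pairs with 95% counting intervals; each pair is written so that the shift is positive, and the dotted line marks 1.5-fold. Intervals in red exclude an equal ratio (9 pairs) and those in grey hold it (6 pairs), and the top 5 pairs hold Eef1b2 or Eef1a1.

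Summed over the 6 genes, elongation factors took 0.399% of gene reads in the GarsC201R/+ library and 0.460% in the wild-type library, a log2 ratio of -0.26 (-0.29 to -0.23). This sum was set by Eef1a2: without it the log2 ratio was -0.025 (-0.073 to 0.023), with 0.146% of gene reads in the GarsC201R/+ library and 0.143% in the wild-type library. The genes of the eEF1B subunits together gave -0.29 (-0.42 to -0.16), and without Eef1b2 -0.07 (-0.24 to 0.09), an interval that held equal levels. In tissue made of several cell types, fewer cells that carry a gene and less of it per cell cannot be told apart. Without an RNA library, neither can mRNA amount and translation. Totals per gene do not resolve codons, so whether ribosome occupancy of glycine codons changed these totals was not tested.

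By RefSeq annotation on GRCm38.p6 the 6 genes lie on 6 chromosomes. Eef1a1 spans chr9:78478453-78481724, Eef1a2 chr2:181141758-181157015 and Eef2 chr10:81176631-81182509. Eef1b2 spans chr1:63176831-63180486, Eef1d chr15:75894796-75909784 and Eef1g chr19:8967041-8978180. The lengths behind the RPKM values were 1794 nt for Eef1a1, 2084 nt for Eef1a2, 3089 nt for Eef2, 1939 nt for Eef1b2, 2842 nt for Eef1d and 1864 nt for Eef1g, all shorter than these spans, which include introns.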

How the data were processed

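Ribosome-protected fragments of mouse spinal cord were measured in 2 libraries, 1 per genotype, each of 3 pooled animals. The tools and build, per the submitters' processing notes, include Bowtie 1.2.2, HTSeq 0.9.1 and GRCm38; the sources used here do not state their settings. The authors deposited a whole-number read count and an RPKM value per gene, per the file headers. Dividing deposited counts by deposited RPKM and by 1 total per library, inferred as 3520348 for GarsC201R/+ and 7790126 for wild type, gave gene lengths that were whole within 1e-06 nt and equal in both libraries. These totals exceed the listed reads, 3514016 and 7771455.

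Counts of all 12530 genes were scaled with TMM (edgeR 4.0.16, R 4.3.3), with a prior count of 0.5; the 18 spike-ins were left out. Ratios have exact conditional binomial intervals, reads exact Poisson intervals, shares Wilson intervals and pairs exact conditional odds-ratio intervals, all at 95%. No test of genotype was possible with 1 library each. Intervals were computed with scipy 1.17.1 in Python 3.11.15, tables with pandas 2.3.3 and numpy 2.4.6, and plots with matplotlib 3.10.9. Thinning used 1 random draw. Other scalings included DESeq2 1.42.0 size factors.

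The members, lists and tests were chosen with earlier results of these data known, and all 6 members are named. The ranges of genes with similar reads were added to show the spread. Of 27 other elongation genes listed for comparison, 0 could be matched, as the 49997-gene RefSeq table holds no Ensembl identifiers.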

Additional observations from a re-analysis of the deposited data

Results flagged for a closer look

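The ERCC spike-ins, which no comparison of the elongation factor genes uses, took 0.650% of the listed reads in the GarsC201R/+ library and 0.00669% in the wild-type library. This signal lies outside the mouse genes and is above its level in the wild-type library. The libraries thus differed in spike-in content as well as in genotype. With 1 library per genotype, a difference in preparation and one of genotype cannot be told apart.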

How the results depend on the processing

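Scaling moved all ratios by 1 common amount and so changed the level of the set, not its composition. For total gene reads, the upper quartile and the deposited RPKM values, the log2 ratio of Eef1a2 was -0.33, -0.34 and -0.34 and that of the summed reads -0.21, -0.22 and -0.22; each gave 0 genes called lower, as Eef1b2 came under the 1.5-fold limit. Eef2 was at 0.063 with total gene reads and 0.055 by RPKM, both with intervals above equal levels. Thinning, which leaves fewer reads and so widens intervals, gave Eef1a1 an interval that held equal levels. A 2-fold limit also left 0 genes lower, and no fold limit gave 1 higher, Eef1a1, and 2 lower, Eef1a2 and Eef1b2. DESeq2 size factors, TMM without the gene above 1% of a library, thinning, other prior counts, read minimums of 20, 500 or none, and a 99% interval kept Eef1b2 as the 1 gene called. Eef1d lay between -0.09 and 0.03 and Eef1g between -0.02 and 0.05 over the scalings, prior counts and thinning, so their sign was not fixed. The log2 change of the Eef1a2 over Eef1a1 ratio, GarsC201R/+ against wild type, lay between -0.65 and -0.57. The summed log2 ratio was -0.025 without Eef1a2 and -0.36 without Eef2. Eef1g, with 69 reads in the GarsC201R/+ library, had the least depth. No paired analysis was possible because each genotype has 1 library, and no replicate could be left out.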
